A study of Mus musculus with 4 samples.

Results

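Rn18s-rs5 is the annotation under which 18S ribosomal RNA (rRNA) appears as a target in the AGO2-CLASH chimeric reads of mouse mesangial cells (MMC). It was 1 of 8440 listed target genes and was chosen by its number of reads, which was the highest of any gene, so the size of that number is a description and not a result. Every row that named Rn18s-rs5 as the target was taken, and each distinct read was counted once per library with its deposited count. This gave 5711 rows, 5651 distinct reads and 6993 reads, or 19.3% of the 36318 chimeric reads of the 4 libraries.

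The study compared MMC of WT C57BL/6J mice with MMC of miR-379KO mice of the same strain, in which a small CRISPR-Cas9 nickase deletion removes miR-379, to find RNAs joined to this miRNA. The cells were primary glomerular mesangial cells that received no treatment and grew in RPMI medium with 10% foetal bovine serum. There were 2 libraries of each genotype, named A and B, each from cells cross-linked with UV, AGO2 immunoprecipitation and T4 RNA ligase. Where 4 values are given in library order, both WT libraries (A, then B) come before both miR-379KO libraries (A, then B). The study calls A and B independent samples in its AGO2 immunoprecipitation libraries, but the sources used here do not say whether the CLASH libraries came from separate animals or cultures, so the p-values measure only the spread between these libraries, which may be technical.

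18S rRNA is the RNA of the small (40S) ribosomal subunit. RNA polymerase I transcribes it within the 45S precursor, from which the spacers are cut away while small nucleolar RNAs (snoRNAs) pair with the rRNA and guide its modification and folding. AGO2 holds a miRNA, the miRNA pairs with a target through its seed, and in CLASH both RNAs are ligated and sequenced as a single chimeric read.

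Reads of 5 kinds show what was listed as an 18S chimera. Each is the distinct read with the highest deposited count in 1 of the 5 densest 100-nt windows of 18S, and capitals mark the segment that was called a miRNA.
18S 149 to 200, miR-8098 in sense: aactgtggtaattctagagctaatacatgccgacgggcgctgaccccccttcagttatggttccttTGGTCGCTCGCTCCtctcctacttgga
18S 423 to 489, miR-7032-5p in antisense: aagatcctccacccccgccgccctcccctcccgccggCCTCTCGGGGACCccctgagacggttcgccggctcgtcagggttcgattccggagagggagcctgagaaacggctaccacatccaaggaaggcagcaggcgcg
18S 675 to 777, miR-5627-3p in sense: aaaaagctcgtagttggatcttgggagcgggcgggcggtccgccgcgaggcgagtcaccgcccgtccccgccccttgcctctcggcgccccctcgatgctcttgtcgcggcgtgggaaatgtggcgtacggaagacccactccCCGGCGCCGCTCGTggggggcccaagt
18S 926 to 1013, miR-149-3p in antisense: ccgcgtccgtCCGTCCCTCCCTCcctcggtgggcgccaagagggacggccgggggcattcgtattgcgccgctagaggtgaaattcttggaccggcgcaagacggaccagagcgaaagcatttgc
18S 1748 to 1803, miR-10a-3p in antisense: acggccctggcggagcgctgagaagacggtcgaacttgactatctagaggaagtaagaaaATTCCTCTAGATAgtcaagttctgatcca

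The first of these reads was counted 6 times in miR-379KO A, and its target segment is chr17:39846501-39846552 of GRCm38 on the plus strand. The capitals with 10 nt on each side are again 18S rRNA, from a stretch upstream of the target segment. The read for 423 to 489 (chr17:39846775-39846841) was counted 8 times in 2 libraries, that for 675 to 777 (chr17:39847027-39847129) 13 times in all 4, and that for 926 to 1013 (chr17:39847278-39847365) 5 times in 1. The miRNA segments of these 3 reads, with up to 10 flanking nt at both ends, had no exact match in GRCm38. The last read (chr17:39848100-39848155) was counted 6 times in 2 libraries and joins 18S to Gm24148, a snoRNA gene within Ncl. The mature miRNAs most often listed with 18S are given from RefSeq (GRCm38.p6), with bases 2 to 8, the seed, in capitals.
miR-8098: gCUAUGGUcgcuggcucccaa
miR-149-3p: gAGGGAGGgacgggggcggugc
miR-7033-5p: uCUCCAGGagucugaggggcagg
miR-7032-5p: cCCAGGGUgguccccgagaggguggu
miR-6975-3p: uCUCUCCUuucuccuccuag
miR-5627-3p: aCAGGGCUcuccggcgccccucgu
miR-2137: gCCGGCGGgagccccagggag
miR-5130: cUGGAGCGcgcgggcgaggcaggc
miR-7028-3p: cCUUCUCUucccccucggccag
miR-3960 was also among the 10 leading miRNAs. These 9 sequences have 9 different seeds, so the leading miRNAs form no seed family.

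The label was checked against the annotation first. The main listed transcript (5337 rows) is 1849 nt long and lies on chr17:39846353-39848201 of GRCm38, on the minus strand in GENCODE vM21. RefSeq places Rn18s-rs5 on the plus strand at chr17:39846354-39848202 as a pseudogene. The plus strand starts and ends as shown here.
18S 5′ end: tacctggttgatcctgccagtagcatatgc
18S 3′ end: tccgtaggtgaacctgcggaaggatcatta
In 5710 of 5711 rows the read was aligned in antisense to the listed transcript, and 1 row was in sense. The reads therefore carried the plus strand, which is the strand of 18S rRNA, and positions below are counted along it from the 5′ end. A second listed transcript (374 rows, 714 nt, chr17:39848103-39848827, minus strand) overlaps the 3′ end of 18S and runs into the adjoining part of the precursor.

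The target segments differed from the chr17 copy at a few fixed positions. Of the 6544 reads listed with the first transcript, 4380 (66.9%) had a target segment identical to the copy. Among 1630 positions covered by at least 20 reads, 5 differed from the copy in at least 80% of reads, and each of the 5 was seen in all 4 libraries. Counted from the 5′ end of 18S, with the base of the copy first, they were C180G (1111 of 1111 reads), T1758C (448 of 448), A1106G (186 of 186), A1083G (64 of 66) and T1074C (33 of 34). Other rRNA gene copies were not used here, and which copies the reads came from was not tested.

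The libraries held from 6326 (miR-379KO A) to 16324 (WT A) chimeric reads. Rn18s-rs5 had 3105, 1343, 1163 and 1382 reads in library order. As shares of the chimeric reads these were 19.0% (95% Clopper-Pearson interval 18.4 to 19.6%), 18.7% (17.8 to 19.6%), 18.4% (17.4 to 19.4%) and 21.3% (20.3 to 22.4%). The intervals treat each read as independent and cover at most counting error. The reads carry no molecular identifiers, so copies of the same molecule may make the intervals too narrow. Reads per distinct 18S sequence were 1.13, 1.49, 1.45 and 1.16 in library order. The shares of the 2 genotypes overlapped, with miR-379KO B highest and miR-379KO A lowest.

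Deletion of miR-379 was not accompanied by a detected difference in 18S chimeras. The mean share was 18.8% ± 0.246 (SD, n = 2) in WT and 19.9% ± 2.09 (SD, n = 2) in miR-379KO, and the exact two-sided permutation test over the 4 libraries gave p = 1.0, where the smallest p that 2 against 2 libraries allow is 0.33. With edgeR's quasi-likelihood test over 686 target genes, Rn18s-rs5 had a log2 fold change, WT relative to miR-379KO, of -0.23 (SE 0.23, Benjamini-Hochberg adjusted p = 0.964), and with DESeq2 it was -0.20 (adjusted p = 0.992). edgeR called 0 of the 686 genes (0%) and DESeq2 0, while 25 (3.64%) had an unadjusted edgeR p under 0.05. The share of chimeric reads measures neither the number of cells nor the rRNA per cell, and changes in these could not be told apart in these bulk libraries. No read joined miR-379 to 18S. In all, miR-379-5p was listed for 3 reads, which were 2 in WT A and 1 in WT B, with 0 in both miR-379KO libraries, and miR-379-3p had 1 in WT A and 0 in the others. The study's partial list of hybrids gives higher read counts for miR-379-5p with Fis1 and Rprd2. Here a read listed with several transcripts was counted once.

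The target segments covered the whole of 18S, but unevenly. Each of its 1849 positions was covered in at least 1 library, and 1803 in all 4. The window from 101 to 200 nt held 37.1% of the reads in WT A and from 24.9% to 25.99% in the other libraries, with a mean of 28.3% ± 5.92 (SD, n = 4). Next came 401 to 500 (9.37% ± 1.997), 701 to 800 (8.83% ± 3.19), 901 to 1000 (8.22% ± 2.30), 1701 to 1800 (7.23% ± 0.795) and 1401 to 1500 (7.16% ± 1.24). The window of 301 to 400, between the first pair, held 0.381%. WT A stood above the other libraries in the densest window, and without it the mean was 25.3%.

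**Figure D1:**
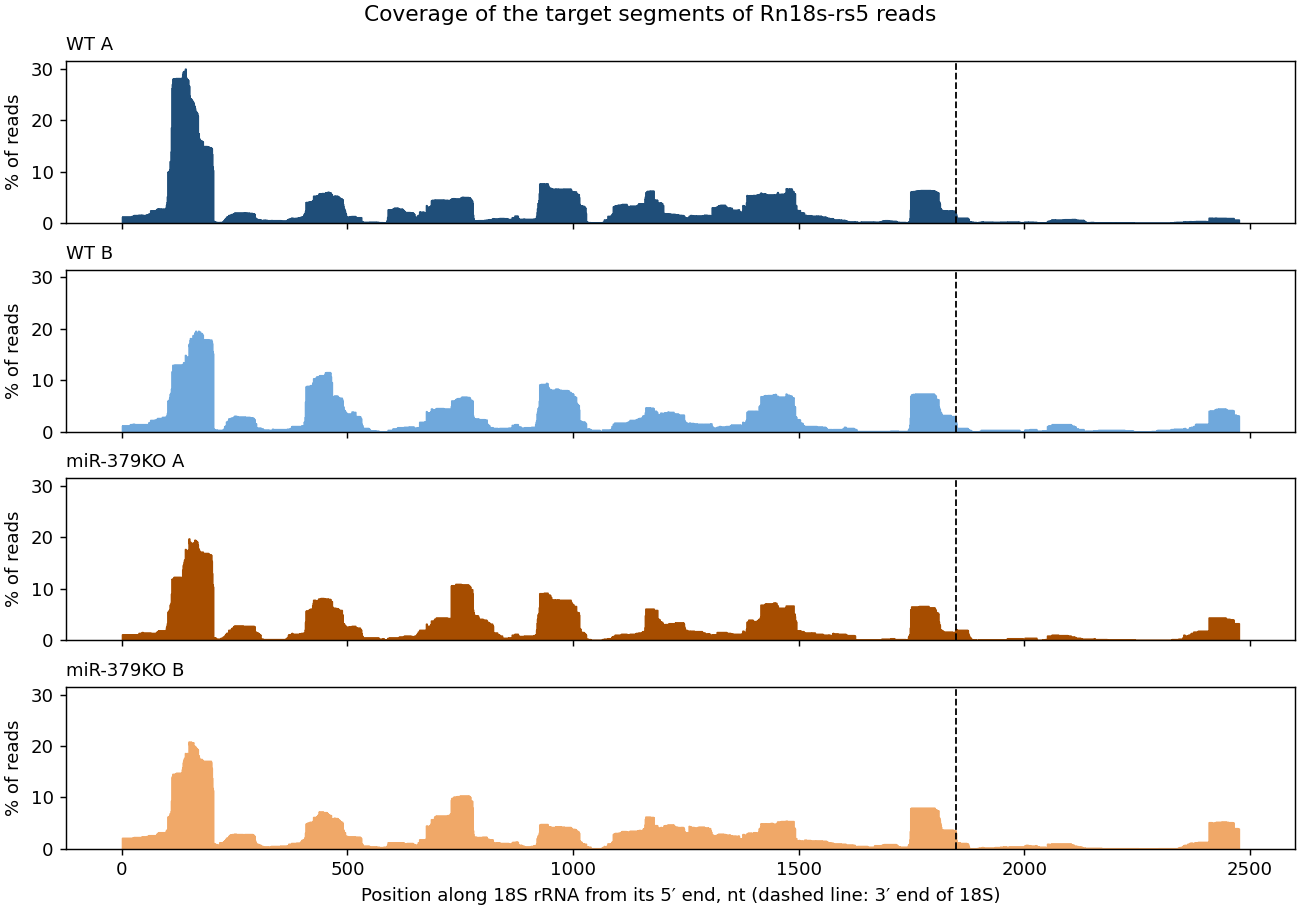
Coverage of 18S rRNA by the target segments of Rn18s-rs5 reads in each library, as the percentage of these reads over each position (x axis, nt from the 5′ end of 18S). The dashed line marks the 3′ end at 1849 nt. All 4 libraries have their highest peak between 101 and 200 nt and a separate peak near 2409 to 2475 nt, beyond 18S, where the listed transcript ends.

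Some junctions recurred at single positions. Of 3446 reads that began with the target segment, 492 (14.3%) left 18S exactly at position 202, with 237, 79, 77 and 99 in library order. Position 777 followed with 208 reads (6.04%). Another 151 (4.38%) ended at position 2475, which is beyond 18S and is the end of the second listed transcript (its 5′ base, as it is annotated on the minus strand), so that no alignment could run past it. Of 3547 reads that began with the miRNA segment, 204 (5.75%) entered 18S at position 110, 137 at 111, 131 at 926, 120 at 1748 and 99 at 408. Each of these junctions was seen in every library, and 146 of the 204 reads at position 110 were in WT A.

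A smaller part of the reads lay wholly downstream of 18S in the precursor, 2.67%, 7.45%, 6.79% and 7.81% in library order. Of 214 reads between 2401 and 2500 nt, 193 were listed with miR-7033-5p, and 188 of these carried the same antisense segment, complementary to bases 7 to 18 of the miRNA without a mismatch. The WT A library had the fewest of these miR-7033-5p reads, 28 against 52, 45 and 68 in the others.

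In all, 461 of 1643 listed mature miRNAs were listed with 18S. The 10 leading ones took 42.9% of the listings, each had reads in all 4 libraries, and 104 miRNAs had a single read. miR-8098 led with 1190 reads, which were 15.2%, 19.0%, 17.8% and 18.5% of the 18S reads in library order. miR-149-3p followed with 605 reads, or 6.96%, 12.6%, 11.01% and 6.66% in the same order. The others had from 121 (miR-7028-3p) to 196 (miR-3960) reads.

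**Figure D2:**
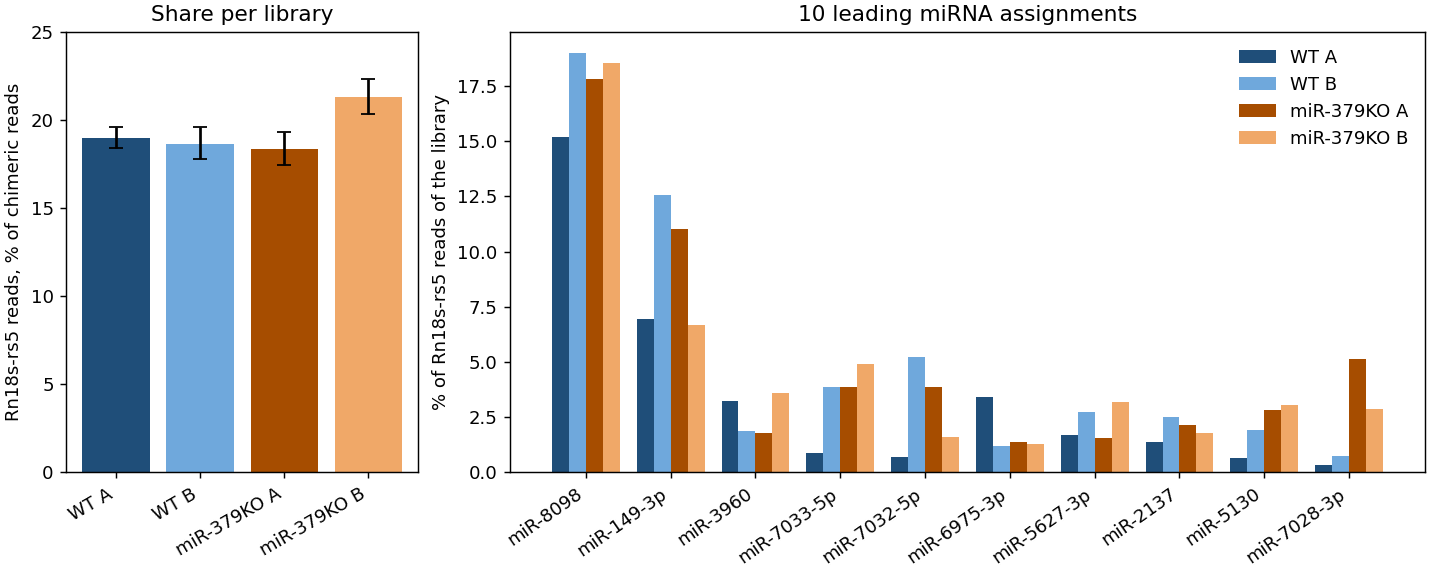
Left, reads listed with Rn18s-rs5 as a percentage of the chimeric reads of each library, with 95% Clopper-Pearson intervals as error bars. Right, the 10 miRNAs listed most often with Rn18s-rs5, as a percentage of its reads in each library (bars), led by miR-8098 at 15.2 to 19.0%.

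For 8 of the 10 leading miRNAs, most reads carried 1 recurrent segment, which was shorter than the miRNA except for miR-2137. For miR-8098, 1128 of 1190 reads (94.8%) carried the same 14 bases, aligned to bases 5 to 18 with the difference G13C (base of the miRNA first, counted from its 5′ end). For miR-5627-3p it was 151 of 152 reads (bases 11 to 24, C19G), for miR-2137 112 of 127 (bases 1 to 21, A16G), for miR-3960 165 of 196 (bases 3 to 16, A12C), for miR-5130 96 of 122 (bases 3 to 16, C9G) and for miR-149-3p, with 24 segments, 299 of 605 (49.4%, bases 1 to 17, G7C and A10C). Of the 10, 3 were read almost only in antisense with 1 leading segment, namely miR-7033-5p, miR-7032-5p (151 of 159 reads, bases 9 to 21, no difference) and miR-7028-3p (113 of 121, bases 6 to 18, C10A). The 156 reads of miR-6975-3p carried 55 different segments, and the most frequent made up 15.4%.

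The leading segments were also tied to places in 18S. miR-5627-3p accounted for 152 of 548 reads in the window 701 to 800, miR-149-3p for 254 of 566 in 901 to 1000 and for 325 of 500 in 1401 to 1500, and miR-2137 for 127 of 179 in 201 to 300. In the window 101 to 200, miR-8098 accounted for 1084 of 2138 reads, and 54 miRNAs were listed there. Without miR-8098 the densest window held 14.9% of the reads.

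The structure of the 18S reads differed from that of all other chimeric reads in the same library. The miRNA segment was in sense in 42.6%, 50.5%, 46.3% and 52.2% of the 18S reads in library order, against 76.5 to 76.9% of the reads of other genes. The mean difference was -28.8 percentage points ± 4.21 (SD, n = 4 libraries, exact sign-flip permutation p = 0.125, the smallest that 4 libraries allow). An alignment to the miRNA of at least 16 nt was found in 14.2% ± 2.60 of the 18S reads and 38.5% ± 3.32 of the others, a difference of -24.4 points in the mean and in the same direction in 4 of 4 libraries (exact p = 0.125). The median alignment in the 18S reads was 13 nt in WT A and 14 nt in the other libraries. Over all reads, the miRNA came before the target in 50.3% ± 3.76 of 18S reads and 50.2% ± 0.566 of the others (2 of 4 libraries in each direction, exact p = 0.875). Among miRNA alignments of at least 16 nt, the miRNA came first 22.7 points more often in the 18S reads (exact p = 0.125). These alignments include the leading segment of miR-149-3p (bases 1 to 17, 299 reads), a miRNA that came first in 89.9% of its 18S reads. The difference without miR-149-3p was not tested.

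The sense rRNA strand held few sites for the listed seeds. The complement of bases 2 to 7 of the listed miRNA was in the target segment as sequenced in 2.83%, 4.02%, 4.21% and 3.47% of the 18S reads in library order, against 28.7 to 32.4% in reads of other genes (mean difference -26.8 points, exact p = 0.125). On the opposite strand of the same segment it was found in 24.5% ± 3.55 of the 18S reads and 4.496% ± 0.660 of the others (mean difference 20.04 points, exact p = 0.125). In the reads of other genes, 88.6% ± 1.88 had the target in sense of the listed transcript. Both comparisons thus mostly set unlike strands of the annotation against each other. Taken on the strand of the listed transcript for most reads, the values were 24.5% for the 18S reads and 30.4% for the others. For 18S, the deposited pairing used the strand opposite to the rRNA. In all 5711 rows the paired target bases were those of the listed transcript, and in 4374 rows (76.6%) they were the complement of the target segment as sequenced. The minimum free energies, in the unit of the deposited values and with medians of -25.9, -28.9, -28.5 and -27.6 in library order and from -24.0 to -23.5 for other genes, are thus energies of the miRNA with the strand opposite to the rRNA that was read.

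**Figure D3:**
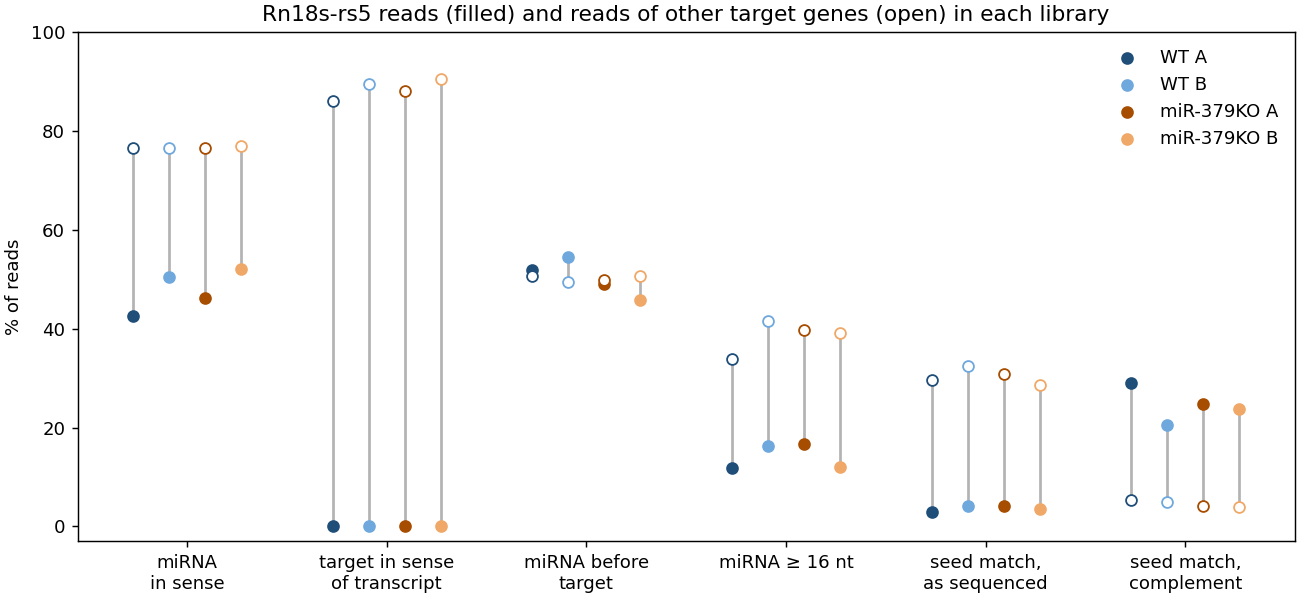
Percentage of reads (y axis) with each of 6 features in the 18S reads (filled points) and in the reads of other target genes (open points), with a grey line joining both values of a library. In 5 of the 6 features all 4 libraries differ in the same direction, and only read order (miRNA before target) does not. Of the 5, the target in sense follows from the annotated strand of Rn18s-rs5, which also bears on both seed features.

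Each segment called a miRNA was then lengthened into the read by at most 10 nt at both ends and searched for exact matches in GRCm38. A stretch that matches in full continues beyond the miRNA, and the matched stretches had a median of 31 nt. Such matches, outside the gene of the listed miRNA, were found for 77.2%, 53.8%, 54.1% and 61.9% of the 18S reads in library order. In reads of other genes the values were 68.4%, 48.7%, 50.1% and 51.5%, so the 18S reads were higher in 4 of 4 libraries (exact p = 0.125, the smallest possible). Of 4605 matched reads, 40 had a stretch under 20 nt.

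**Figure D4:**
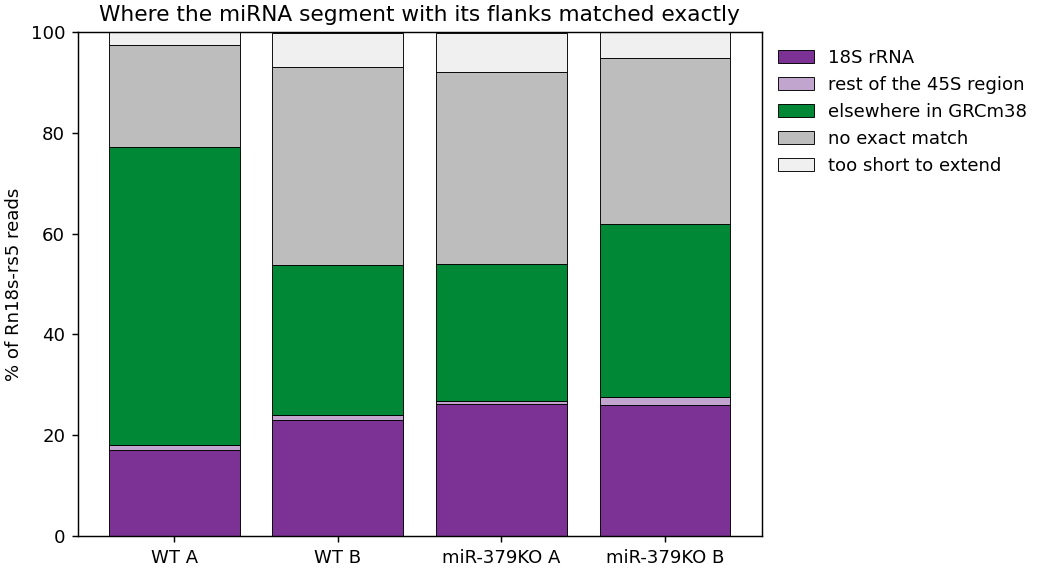
Where the segment called a miRNA, with up to 10 flanking nt at both ends, matched exactly, as a percentage of the Rn18s-rs5 reads of each library (stacked bars). WT A has the highest share elsewhere in the genome (59.1%) and the lowest share in 18S (17.1%). The 2 reads that matched the strand opposite to 18S are not drawn.

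In 1504 reads (21.5%) the matched stretch was itself 18S rRNA, so that the read joined a pair of 18S stretches. This share was 17.1%, 23.0%, 26.2% and 25.9% in library order. The groups did not overlap (20.1% ± 4.15 in WT and 26.1% ± 0.227 in miR-379KO, SD, n = 2), with an exact permutation p = 0.33, the smallest possible. Of 11 such measures of the 18S reads compared between the genotypes, 3 did not overlap, the others being the miRNA before the target (WT mean 53.2%, miR-379KO mean 47.5%) and the window 101 to 200 (31.6% and 25%), each with an exact permutation p = 0.33. Another 75 reads matched elsewhere in the 45S region of chr17 between Gm26917 and the second transcript, and 2 matched the strand opposite to 18S. Reads whose segment could not be extended were not counted among the 1504, so that number may be too low. They include 24.3% of the miR-149-3p reads. The leading miR-149-3p segment, with its differences from the miRNA, also stands in the 18S target printed for 926 to 1013.

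The largest set of these 18S to 18S reads was that called miR-8098, with 1042 of 1504 reads (69.3%). Its 14-base segment occurs once in 18S, at 121 to 134 nt (chr17:39846473-39846486, plus strand), and is shown in capitals with 20 nt of 18S on each side.
18S 101 to 154: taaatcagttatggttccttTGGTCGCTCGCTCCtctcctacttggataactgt
Of all 1190 miR-8098 reads with Rn18s-rs5, 87.6% had the flanks of this site as well. miR-149-3p followed with 131 reads (18S near 926 to 950), then miR-5130 with 90 (near 676 to 729), miR-494-3p with 75 (near 1257 to 1306) and miR-6931-5p with 71 (near 482 to 530).

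The pair of 18S stretches usually lay close together and often out of order. Their centres were a median of 47.8 nt apart, and 82.0% were within 200 nt. In 720 reads (47.9%) the second stretch of the read lay upstream of the first in 18S, in 356 (23.7%) it lay downstream with a part of 18S skipped, and in 428 (28.5%) both stretches overlapped, so that some bases of 18S occurred in the read more than once. The first order made up 50.8%, 36.2%, 52.1% and 50% of these reads in library order.

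**Figure D5:**
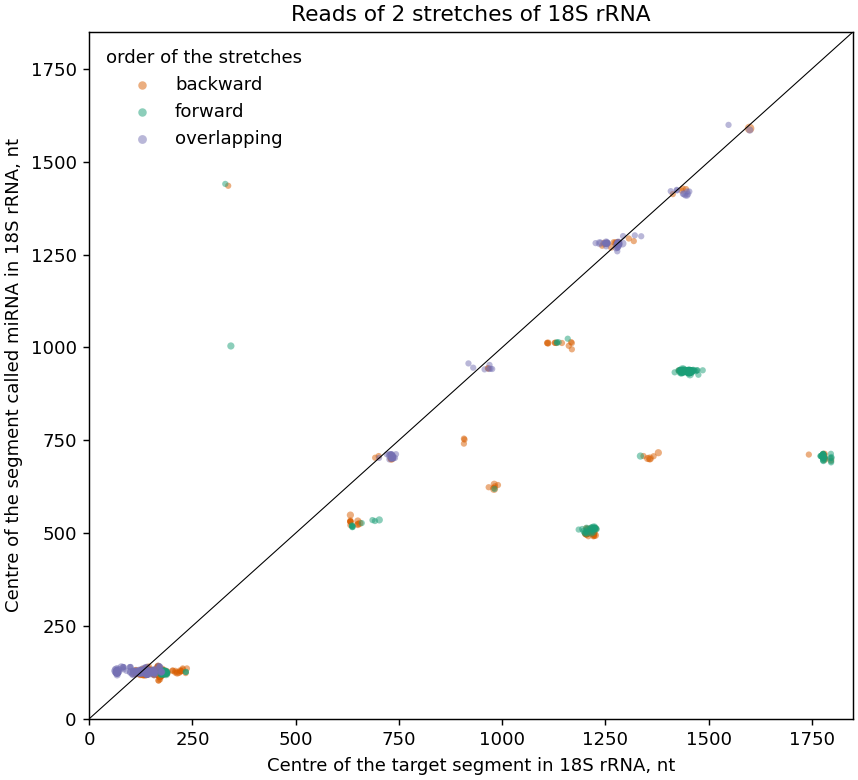
Reads made of 2 stretches of 18S rRNA, with the centre of the target segment (x axis, nt) against the centre of the stretch called a miRNA (y axis, nt). Points are distinct reads, larger with a higher count, coloured by the order of the stretches in the read, and the line marks equal positions. Most points lie near the line, with a dense group at 101 to 200 nt.

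In 3024 reads the stretch matched elsewhere in GRCm38. They made up 59.1% of the 18S reads in WT A and 29.7%, 27.2% and 34.3% in the other libraries, so WT A stood apart from WT B as well as from both miR-379KO libraries. A single match within a protein-coding gene on its own strand was found for 2088 of the 3024 reads (69.0%), 1355 of them in WT A. Another 379 reads had more than 1 match, and 321 matched between genes.

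Among these were 133 reads that joined 18S to an annotated snoRNA, 42, 30, 27 and 34 in library order. These snoRNAs were picked out after their values were seen. Gm24148, a snoRNA of 80 nt in Ncl (chr1:86352008-86352087, minus strand of GRCm38), had the most with 47 reads, namely 7, 17, 13 and 10 in library order. All 47 were listed with miR-10a-3p in antisense. The longest stretch of Gm24148 that is complementary to 18S without a mismatch has 21 nt and faces 18S 1779 to 1799.
Gm24148 stretch: TTCCTCTAGATAGTCAAGTTC
In 47 of 47 reads the 18S target segment overlapped this complementary site, and the printed read for 1748 to 1803 is one of them. Box C/D snoRNAs as a class pair with rRNA next to the base that is methylated.

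The other snoRNAs showed less complementarity to 18S. U3 snoRNA (the Rnu3b genes, alone or with Gm23927 and Gm24949), which takes part in the cleavage of the 18S precursor, had 21 and 16 reads, with target segments at a median of 2051 to 2103 nt, downstream of 18S. In 3 of the 21 reads the target segment lay over 18S 1384 to 1391 instead. Snord82 had 15 reads near 424 to 489, Snord66 had 13 near 1201 to 1306 and Snord55 had 7 near 1748 to 1809. The longest perfect complement to 18S was 11 nt for Snord82 and 7 nt for Snord66 and Snord55. For Snord66, 12 of 13 target segments overlapped that stretch, and for Snord82 and Snord55 none did.

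In 2058 reads (29.4%) the extended segment had no exact match in GRCm38, and in 330 (4.72%) it could not be extended by the 5 nt required. These included nearly all reads listed with miR-7033-5p (98.4% without a match), miR-7032-5p (96.2%), miR-5627-3p (100%), miR-2137 (97.6%) and miR-7028-3p (95.9%). A full reference of the rRNA repeat was not used here.

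Reads that carried a long miRNA in sense were few. A sense alignment of at least 20 nt was found in 261 reads (3.73%), and 103 of these (1.47% of all 18S reads) had no mismatch or gap, 13, 28, 30 and 32 in library order. miR-2137 had 117 of the 261 and none without a mismatch. The 103 reads named 24 miRNAs, and 65 of the reads named 1 of 7 let-7 members, with let-7c-5p at 22 reads, let-7b-5p at 18, let-7a-5p at 13 and let-7i-5p at 7. Outside it, miR-214-3p had 10 and miR-155-5p 6.

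The let-7 reads lay in 1 part of 18S. Of 65 such reads, which numbered 3, 23, 23 and 16 in library order, 56 (86.2%) had the centre of their target segment between 401 and 600 nt, where 9.67% of all Rn18s-rs5 reads lay. In 41 of the 65 the miRNA and the 18S segment met with no base between them, and in 41 the miRNA came first. One of these, from WT B with 3 reads, joins 18S 407 to 528 (chr17:39846759-39846880) to let-7c-5p, in capitals.
let-7c-5p chimera: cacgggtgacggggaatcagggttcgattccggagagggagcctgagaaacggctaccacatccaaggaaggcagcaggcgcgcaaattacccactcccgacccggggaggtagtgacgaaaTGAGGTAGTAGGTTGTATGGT
No target segment of the 65 held the complement of bases 2 to 7 of its let-7 as sequenced. In 56 of them, 18S held the seed in the same sense as the miRNA. The sequence GAGGTAGT, which is bases 2 to 9 of let-7a, b, c, d, f and i, occurs once in 18S, at 514 to 521 nt, and was inside the target segment of all 18 let-7b-5p and all 22 let-7c-5p reads but of 5 of the 13 let-7a-5p reads. These values were examined after the reads were seen, and how such reads arose was not tested.

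No miRNA paired with 18S differed between the genotypes beyond the threshold. Of 632 pairs of a miRNA and a gene tested with edgeR, 112 were pairs with Rn18s-rs5. edgeR called 0 of the 112 and 0 of the 632 (0%) at an adjusted p of 0.05, and DESeq2 called 0 as well. At an unadjusted p under 0.05 there were 3 with edgeR (2.68%, against 2.53% of all pairs) and 2 with DESeq2. The libraries of the genotypes did not overlap for 35 of the 112 (31.2%, against 28.8% of all pairs), with WT above in 20 and below in 15. The median log2 fold change was 0.18 over the 18S pairs and 0.27 over all pairs.

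The smallest p belonged to miR-7028-3p, whose reads lay near 730 to 777 nt. It had 11, 10, 60 and 40 reads in library order, or 6.74, 13.9, 94.8 and 61.8 per 10000 chimeric reads. Both miR-379KO libraries were above both WT libraries, with a log2 fold change (WT over miR-379KO) of -3.06 (SE 0.78, edgeR unadjusted p = 0.00483, adjusted p = 0.977, DESeq2 adjusted p = 0.211). Without WT B the pair passed the threshold (log2 fold change -3.68, edgeR adjusted p = 0.0189), but WT then had 1 library, which is assumed to vary like the miR-379KO libraries. miR-351-5p (3, 3, 7 and 18 reads) and miR-5131 (5, 1, 9 and 7 reads) came next in this direction. In the other direction miR-7018-5p had 6, 8, 0 and 1 reads, miR-1249-5p 21, 8, 3 and 1, and miR-3058-3p 7, 6, 0 and 1 in library order. The adjusted p of each of these 5 was 0.977 in edgeR. Of the 9 other leading miRNAs, miR-5130 did not overlap between the genotypes (12.9 and 36.2 per 10000 in WT, 52.2 and 64.9 in miR-379KO, edgeR adjusted p = 0.977), and the other 8 did.

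The likeness of miRNA profiles to that of 18S was measured for 20 other genes with at least 100 reads over the 4 libraries. The Bray-Curtis distance (0 for equal profiles, 1 for no shared miRNA) was smallest for AY036118 (0.624), which lies within Rn18s-rs5 on chr17:39847113-39848035. All its 2166 reads are also reads of Rn18s-rs5 and make up 31.0% of them, so this distance is set by shared reads. Gm26917 (0.702) and Lars2 (0.780) came next. Gm42418 (0.803), which overlaps 18S on the plus strand and has 4018 reads, shared 208, and Gm26917, upstream of 18S, shared 0.

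Of 18 rRNA-like gene names, 8 had at least 10 reads, and edgeR called 0 of these 8 (unadjusted p under 0.05 for 2, mt-Rnr1 and mt-Rnr2, against 3.64% of all genes). Their median log2 fold change, with miR-379KO as the base, was -0.55 and 0.21 over all genes tested. The 12S and 16S rRNAs of the mitochondrial ribosome had the smallest p-values, with mt-Rnr1 at 12, 17, 25 and 26 reads (edgeR adjusted p = 0.964) and mt-Rnr2 at 13, 3, 17 and 16 (adjusted p = 0.837) in library order. Gm42418, Gm26917, AY036118, Gm15564, Gm26870 and Rn5s, the 5S rRNA, had log2 fold changes from -1.48 to -0.17.

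Genes that make the small subunit were also listed as targets. Of 44 genes for 18S maturation and small subunit assembly, 17 had reads and 3 had at least 10, namely Nop56 of the box C/D snoRNP (11, 1, 0 and 1 reads), Ncl, which encodes nucleolin (7, 2, 4 and 1), and Utp14a of the small subunit processome (7, 4, 1 and 4). Of 34 small subunit protein genes, 18 had reads, among them Rps12 (15, 0, 1 and 2). RNA polymerase I genes had 20 reads over 6 of 16 genes, none with 10. edgeR called 0 of the 3 assembly genes, also at an unadjusted p under 0.05 (3.64% of all genes), with a median log2 fold change of 0.15 against 0.21 over all genes, and Rps12 had a log2 fold change of 1.03 (SE 1.25, edgeR adjusted p = 0.964).

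As a check of the cell type, 7 of 10 mesangial markers had chimeric reads. Col1a1 had 118 reads, Acta2 86, Col4a1 57, Vim 18 and Tagln 13, and edgeR called 0 of these 5, also unadjusted, where 3.64% of all genes passed (median log2 fold change -0.51, and 0.21 over all genes). Markers of endothelial cells, tubular cells and macrophages had 0 reads over 5 genes each, and those of podocytes had 5 reads over 3 of 5 genes. Itga8, Gata3 and Thy1 were without reads. Chimeric reads of a gene are few, so a marker without reads may still be expressed.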

How the data were processed

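The 4 AGO2-CLASH libraries were analysed from tables that the authors deposited with 1 row per read, miRNA and transcript. The authors merged read pairs with pear, discarded those that Bowtie2 2.1.0 (named in the submitters' processing notes) placed on the genome or on transcripts, and ran blastn on what was left, both strands, with mature miRNAs and GENCODE transcripts as the databases. The removal of aligned reads leaves reads of 1 continuous stretch of 18S rRNA out of these tables. The deposited count gives how often a merged sequence was read, without normalization. The deposited score and minimum free energy of a pair come from the authors, and the tool behind them is not given in the sources used here, and the deposited positions were used as given, with a start above the end read as antisense.

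Each read was counted once per library. Where a read had several rows with Rn18s-rs5, the row with the highest score represented it, and for counts per miRNA each listed miRNA was counted. Positions were moved to the rRNA strand through GENCODE vM21 coordinates on GRCm38 and assigned to 100-nt windows by the middle of the target segment. miRNA segments with up to 10 nt on each side (at least 5 nt in all, not entering the target segment) were searched exactly on both strands of GRCm38.p6, and matches within the gene of the listed miRNA were set aside. Genes and miRNA-gene pairs with at least 10 reads over the libraries went into the quasi-likelihood test of edgeR 4.0.16 (R 4.3.3, TMM, a genotype term alone, p-values adjusted by Benjamini-Hochberg over all genes or pairs, threshold 0.05), and DESeq2 1.42.0 was an alternative. Shares were compared by exact permutation tests, two-sided, and intervals are 95% Clopper-Pearson intervals (scipy 1.17.1). A library total counts chimeric reads and is not its sequencing depth, and 3 reads, the floor for detection, were from 0.0184% (WT A) to 0.0474% (miR-379KO A) of it. Steps were tested on simulated data. Plots used matplotlib 3.10.9.

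Rn18s-rs5, the gene lists and the tests were chosen with earlier results of these data known. The miRNAs and genes named are the 10 miRNAs with the most Rn18s-rs5 reads, the 3 pairs with the smallest p in each direction, miR-379, list members with at least 10 reads (1 result is not reported here) and the 3 genes with the closest miRNA profile. The snoRNAs, the long sense miRNAs, Gm42418, miR-494-3p, miR-6931-5p and the markers with fewer reads were picked out later, with their values known. The alternatives comprised a replicate block, DESeq2, library totals without TMM, no minimum count, each library left out, distinct sequences, longer or perfect miRNA alignments, reads with a single miRNA and gene, every listed row of a read, totals without other rRNA-like genes, the methods' fold rule, within-library values without miR-8098, and other windows, flanks and seed lengths. Sense miRNAs only, exclusion of genome-matched segments and exclusion of miR-8098 from the windows were added after seeing the data.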

Additional observations from a re-analysis of the deposited data

How the results depend on the processing

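The log2 fold change of Rn18s-rs5 between the genotypes (WT over miR-379KO, -0.23 in edgeR) turned positive with no minimum count (0.23) and with reads of a single miRNA and gene (0.016), and with each library left out in turn it lay between -0.47 and -0.13. Under the other settings it lay between -0.43 (alignments of at least 16 nt) and -0.04 (alignments without mismatch or gap), with -0.076 for library totals without TMM. The replicate block gave -0.23 for it, 0 called pairs and -1.02 percentage points for the share, and changed no call. The letters A and B did not pair the libraries (correlation of deviations -0.062 over 686 genes). The difference in share (WT minus miR-379KO, -1.02 points) turned positive with miRNA alignments without mismatch or gap (0.301) and without miR-379KO B (0.463), with a range of -2.49 to 0.463 over the libraries left out. It was -2.04 points without the reads of other rRNA-like genes in the total, -0.27 with alignments of at least 16 nt, and between these under the other settings. The count of called 18S pairs was 0 to 1 with a library left out, 1 without WT B (WT then has 1 library), and 3 by a fold over 1.5 with an unadjusted p under 0.05, the rule in the methods.

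The difference in read order (0.155 points) turned negative with each distinct sequence once (-1.28), single listings (-5.70), every listed row (-2.87) and without segments in a longer genome match (-1.45), and ranged from -1.47 to 1.84 with a library left out (-0.21 without WT A). With miRNA alignments of at least 16 nt, among them the leading miR-149-3p segment, it was 22.7 points (exact p = 0.125, the smallest possible). The other within-library differences kept their direction, but some changed in size by over 1.5 times. The difference for sense miRNAs (-28.8) was -16.8 with alignments of at least 16 nt, and that for the seed in the complement (20.04) was 39.9. The difference for alignments of at least 16 nt (-24.4) was -38.8 without segments in a longer genome match, and that in energy (-3.95) was -2.20 without miR-8098. The share of the densest window (28.3%) was 15.97% with windows of 50 nt, 42.8% with single listings and 14.9% without miR-8098, and 25.3 to 29.4% with a library left out. With alignments of at least 16 nt the densest window was 1401 to 1500 (32.3% ± 2.57, SD, n = 4). The share of segments in a longer match (61.8% as a mean over libraries) was 36.8% for alignments of at least 16 nt and 56.6 to 64.4% with a library left out. The causes of these shifts were not tested. No value could be had for reads with the miRNA and the listed transcript both in sense, because all but 1 row had the transcript in antisense, which is the strand of 18S rRNA. With sense miRNAs only, the log2 fold change was -0.24, the difference in share -1.32 points and the count of called pairs 0 of 31. With 2 libraries a genotype and as few as 1163 reads with 18S in 1 of them, small differences were not detectable.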
